A study of Mus musculus with 6 samples.

Results

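Ceramide synthesis genes were followed in the hippocampus of male C57BL/6 mice aged 14 months, as 8 genes named by symbol: the ceramide synthase genes Cers1, Cers2, Cers4, Cers5 and Cers6, the serine palmitoyltransferase genes Sptlc1 and Sptlc2, and the desaturase gene Degs1. The set was chosen by the junction reads of circular RNAs (circRNAs), since a Cers6 circle had been lower after dihydrotestosterone (DHT) in an earlier look at the same data, so these reads are given as a description and support nothing. In the files 7 of the 8 genes had a gene value, out of 32348 gene identifiers. They hosted 5 of 11895 circRNAs, from 3 of the genes, and held 137 of 290713 exon and splicing events.

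The DHT group had 3 libraries from mice injected under the skin once a day for 14 days with DHT, an androgen that aromatase does not convert to oestrogen. The oil group had 3 libraries from mice given corn oil, the vehicle, on the same schedule. The DHT libraries are also described as a testosterone group in the labels. The labels call the mice healthy and do not say whether a library is 1 animal or a pool. The p-values therefore cover the spread over these libraries, part of which may be technical.

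Ceramide is the core of all complex sphingolipids, including the galactosylceramide and sulfatide of myelin. Its synthesis starts at the endoplasmic reticulum, where serine palmitoyltransferase, a complex built on SPTLC1 and SPTLC2, joins serine to palmitoyl-CoA. After a reduction step, a ceramide synthase adds a fatty acid whose chain length depends on which of the CERS enzymes acts, and DEGS1 then introduces the double bond that turns dihydroceramide into ceramide. Circular RNAs form by back-splicing, in which the end of an exon is joined to the start of the same or an earlier exon, and they are counted by reads across that junction.

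The promoters of Cers6 and Sptlc2 are shown because the main first exon of both genes began, in the deposited events, exactly at the RefSeq (GRCm38.p6) promoter start. These windows thus lie directly before the starts used in these libraries. For Sptlc2 this base is also where the RefSeq gene span begins. For Cers6 it is chr2:68861441, while the RefSeq gene span begins upstream of the window, at chr2:68861145. The 250 bases before the promoter start of Cers6 are chr2:68861191-68861440 on the plus strand. Those of Sptlc2 are chr12:87388356-87388605 on the minus strand, both given 5′ to 3′ along the gene from RefSeq. Capitals mark the CCAAT box and the GC box (GGGCGG), each on either strand.
Cers6 promoter: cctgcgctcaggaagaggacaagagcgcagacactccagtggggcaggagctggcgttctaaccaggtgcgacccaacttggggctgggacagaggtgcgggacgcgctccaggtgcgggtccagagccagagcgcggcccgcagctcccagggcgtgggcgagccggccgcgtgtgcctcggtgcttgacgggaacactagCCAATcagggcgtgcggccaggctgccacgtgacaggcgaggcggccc
Sptlc2 promoter: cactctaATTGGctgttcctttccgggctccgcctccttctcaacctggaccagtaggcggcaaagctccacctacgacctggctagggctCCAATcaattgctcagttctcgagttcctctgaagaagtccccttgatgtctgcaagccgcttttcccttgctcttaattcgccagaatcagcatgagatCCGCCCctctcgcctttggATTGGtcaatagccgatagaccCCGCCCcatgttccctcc

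The Cers6 window holds 1 CCAAT box, and the Sptlc2 window holds 3 CCAAT boxes and 2 GC boxes. Among 32851 RefSeq promoter windows of 250 bases searched on both strands, 33.8% hold a CCAAT box and 32.7% a GC box. The half-site of the androgen receptor, AGAACA, is found in 16.1% of these windows. The full androgen response element, which is this half-site followed after 3 bases by its reverse complement, is found in 0.00913%. Neither is present in the windows of the 8 genes. The TATA box, TATAAA, is found in 12.4% of all windows and in none of theirs. This says only that these letters are not in these windows, which are set by the RefSeq promoter starts. Counted from the promoter start, with minus for upstream, the main first exon began at -609 in Degs1, -370 in Cers5 and -206 in Cers4. In Cers2 it began at -106 and in Sptlc1 at -36. The windows of these genes thus do not lie directly before the starts used in these libraries, and those of Degs1 and Cers5 lie wholly after them. The RefSeq gene span is a different measure. In Degs1, Cers4, Cers2 and Sptlc1 it begins upstream of the main first exon, and in Cers5 downstream of it.

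The libraries held between 43512 and 55325 back-splice junction reads, out of 143 to 177 M (mega) mapped reads. The lists name a circRNA in a library only from 2 reads upward, so an unlisted one is counted as 0 and may hold 1 read. Of 9 marker genes of hippocampal fields 5 had a mean of at least 0.5 FPKM and 2 a mean over 5 FPKM, while 8 of 9 marker genes of the striatum had a mean over 5 FPKM. Of the hippocampal list Zbtb20 averaged 10.5 FPKM, Wfs1 8.57 FPKM and Neurod6 0.0428 FPKM, and of the striatal list Drd1 was listed at 0 in every library. The tissue is therefore named only as the labels give it.

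Cers6, which encodes the synthase that prefers palmitoyl-CoA and makes ceramide with that chain, carried the most abundant circRNA of the 8 genes. This circle spans 24294 bases on chromosome 2 (chr2:69047145-69071438, plus strand, GRCm38), inside a gene of 253.1 kb. It had 5, 5 and 4 junction reads in DHT libraries 1, 2 and 3, against 15, 11 and 13 in oil libraries 1, 2 and 3. All DHT libraries lay below all oil libraries, as for 2.89% of the 2524 circRNAs with at least 20 reads, and within each group the libraries were close to each other. Per M junction reads this was 94.2 ± 5.38 in DHT libraries, against 283 ± 37.8 in oil libraries (SD, n = 3 each), a fitted log2 fold change of -1.57. With 53 reads in all, the circle ranked 969 among the 11895.

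The linear reads listed at the same circle did not separate the groups. There were 209, 134 and 160 in DHT libraries, against 193, 146 and 158 in oil libraries, with a log2 fold change of -0.06 (SE 0.15, edgeR adjusted p = 0.915). The sign of this small difference turned on leaving out DHT library 2 (0.10) or oil library 1 (0.04). Of the 1581 circRNAs whose linear reads were tested, 0.886% passed an adjusted p of 0.05. These linear counts were not part of how the gene was chosen. Junction reads per 100 linear reads were 2.39, 3.73 and 2.50 in DHT libraries, against 7.77, 7.53 and 8.23 in oil libraries. This ratio carries the junction counts by which the gene was chosen, so its lack of overlap is not a separate observation. Over the 6 libraries together the Cers6 circle had 5.30 junction reads per 100 linear reads, equal to the median of 1578 circRNAs with linear reads in every library.

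A second Cers6 circle shares the upstream end of the first and closes much earlier (chr2:69047145-69050872). It was rare, with 3 reads in DHT library 3, 2 reads in oil library 1, and no listing in the other 4 libraries. Both circles of Cers6 together held 17 reads under DHT and 41 under oil.

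Cers5, another synthase that makes ceramide with palmitoyl chains, hosted 1 circle, on chromosome 15 (chr15:99738665-99745946, minus strand). It had 5, 10 and 10 reads in DHT libraries, against 3 reads in oil library 2 and no listing in oil libraries 1 and 3. Its levels thus ran the other way from those of Cers6, and every DHT library was above every oil library, as for 6.14% of circRNAs. Per M junction reads it stood at 174 ± 73.6 in DHT libraries, against 21.8 ± 37.8 in oil libraries (SD, n = 3 each), from summed reads of 25 and 3. Its fitted log2 fold change of 2.83 became 6.07 without oil library 2, the only oil library that listed the circle. Where linear reads were listed for it they numbered 234, 190 and 195 in DHT libraries and 179 in oil library 2.

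Sptlc2, the catalytic subunit of serine palmitoyltransferase, hosted 2 circles on chromosome 12 that overlap at 1 exon. The longer (chr12:87336032-87346801, minus strand) had 5, 4 and 4 reads in DHT libraries, and 4 reads in oil library 1 with no listing in oil libraries 2 and 3. With 4 reads also in that oil library, the groups touched. The shorter (chr12:87346708-87350385) had 7 reads, all of them in DHT library 1. The shorter one starts and ends on exon edges of the deposited events, an exon of 94 bases and one of 125 bases, and the 94-base exon is also the upstream end of the longer one. Over both circles Sptlc2 had 20 reads under DHT, of which the 7 of the shorter circle come from DHT library 1 alone, and 4 under oil.

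**Figure D1:**
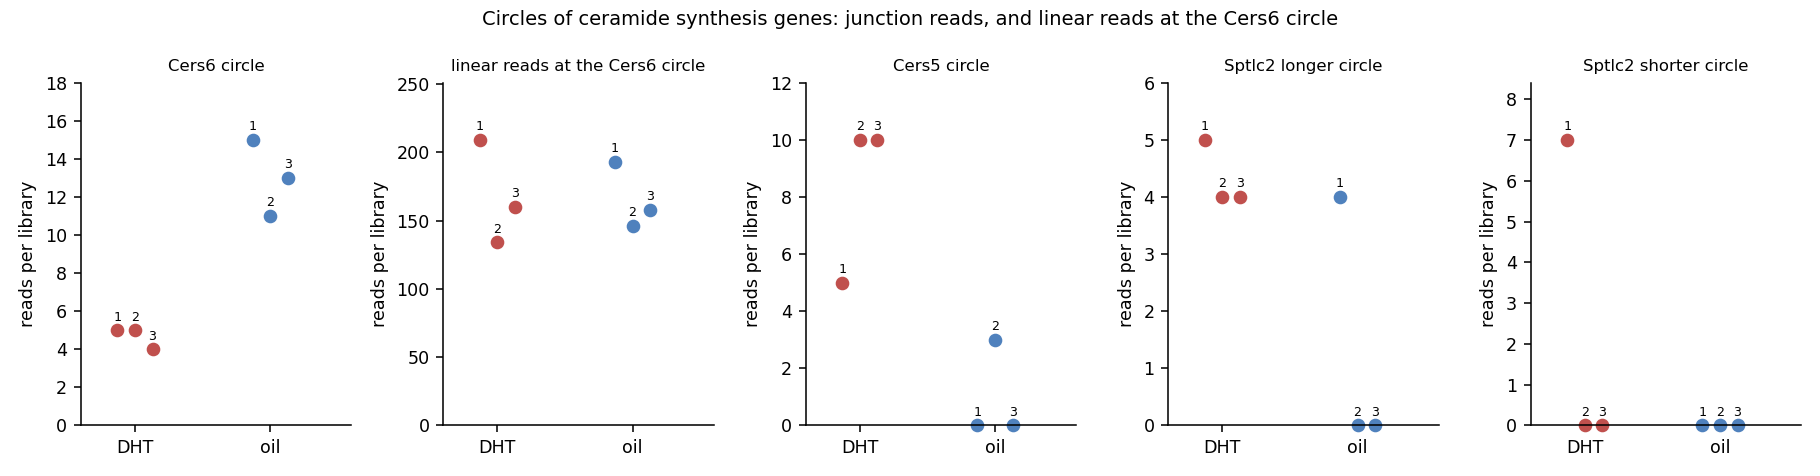
Reads per library (y axes, linear, each panel with its own range) for 4 circles of ceramide synthesis genes and for the linear reads at the Cers6 circle. Each point is a library, numbered within its group, with DHT on the left and oil on the right, and unlisted circles are drawn at 0. The Cers6 circle had 4 to 5 reads under DHT and 11 to 15 under oil, while the linear reads at it overlapped between groups.

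Over all 5 circles the genes had 62 junction reads under DHT and 48 under oil. Only the main circles of Cers6 and Cers5 reached the 20 reads asked for in the fit over 2524 circRNAs. Neither passed an adjusted p of 0.05 in edgeR's quasi-likelihood test, where 0% of all circRNAs passed and 3.13% had an unadjusted p under 0.05, nor in DESeq2, where 0% passed too. Since the choice of the genes rests on this contrast, nothing is read from these counts.

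No circle was listed under the symbols Sptlc1, Cers1, Cers2, Cers4 or Degs1. Circles listed under Gdf1, the gene that shares the locus of Cers1, were not searched. The share of genes that hosted a circle rose over 3 classes of gene span. Of genes averaging 0.5 FPKM or more that span under 10 kb, 2.27% of 2330 hosted a listed circle, and Cers2 (8.8 kb) and Degs1 (6.9 kb) were not among them. From 10 to 50 kb it was 18.9% of 5062, with Cers5 (36.9 kb) a host and Cers4 (36.8 kb) and Sptlc1 (44.7 kb) not, although Sptlc1 is longer than Cers5. Cers1 (15.8 kb) had no gene value under its own identifier, so it is not part of this share. At 50 kb and over it was 63.8% of 3545, with Sptlc2 (83.3 kb) and Cers6 both hosts. The span classes were set after the data were seen.

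Gene values, in contrast, came from linear transcripts and had no part in the choice of the genes. A gene value is the larger of the summed first-exon FPKM and the summed last-exon FPKM of a gene, computed in each library from the deposited events. None of the 7 genes with a value passed an adjusted p of 0.05 in limma, a threshold that 0.0176% of 11368 genes passed, and 0 of the 7 had an unadjusted p under 0.05, against 7.34% of all genes. This last count was 1 with centred libraries, and also 1 without DHT library 1, without oil library 1 or without oil library 3. Of the 7, 4 were higher and 3 lower in DHT libraries, or 3 and 4 with each library centred on its median, and of all genes 63.6% were higher, or 51.4% with centring. In bulk tissue, fewer cells of a type and less RNA per cell cannot be told apart.

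For the first enzyme of the pathway, both subunit genes stood higher in every DHT library than in any oil library. Gene values summed over all genes were likewise higher in every DHT library (94871 to 96063 FPKM) than in any oil library (87148 to 89596 FPKM). Whether the subunit genes stay apart with that offset removed was not tested. Sptlc1 had 3.19, 3.24 and 3.24 FPKM in DHT libraries, against 2.10, 2.74 and 3.05 FPKM in oil libraries. The DHT libraries were almost equal, and oil library 1 was the lowest. The log2 fold change, here and below on the scale of FPKM + 0.5, was 0.26 (SE 0.14, limma adjusted p = 0.681). It was 0.20 with centred libraries and 0.14 without oil library 1. With first-exon sums alone DHT library 2 held 2.75 FPKM of Sptlc1, below oil library 3, so that the groups overlapped.

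Sptlc2 stood at 2.31, 2.26 and 2.50 FPKM in DHT libraries, against 1.74, 1.92 and 2.18 FPKM in oil libraries, with a log2 fold change of 0.23 (SE 0.12, limma adjusted p = 0.681). With centred libraries the log2 fold change of Sptlc2 was 0.16. Its groups did not overlap either without centring, and 12% of all tested genes likewise had every DHT library above every oil library. The separation of Sptlc2 was not in its main first exon, which had 1.95, 1.78 and 2.01 FPKM in DHT libraries, against 1.53, 1.88 and 2.15 FPKM in oil libraries. With the fullest single event in place of the sum, its log2 fold change was 0.04. The rest came from a short form that starts at the 125-base exon of the shorter circle and keeps the intron chr12:87342749-87346708. It held 0.337, 0.463 and 0.424 FPKM in DHT libraries, against 0.188, 0 and 0 FPKM in oil libraries, which is below the mean of 0.5 FPKM asked for in the test. As a share of the forms read across it, this intron was kept in 15.7%, 20.7% and 20.5% in DHT libraries and in 10.9%, 0% and 0% in oil libraries.

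Among the synthases, Cers2, which makes the very long chain ceramides typical of myelin, was the most abundant with a value under its own identifier. It had 6.22, 6.84 and 7.87 FPKM in DHT libraries, against 7.21, 6.86 and 9.01 FPKM in oil libraries (log2 fold change -0.13, SE 0.14, limma adjusted p = 0.827). The groups overlapped, and oil library 3 was the highest. Without that library the log2 fold change was -0.02, and without DHT library 3 it was -0.21. Summed over 9 oligodendrocyte markers, these libraries held 401 to 484 FPKM in DHT and 347 to 418 FPKM in oil; all 9 markers were higher in DHT, 0 passed, and the defining marker with the lowest mean, Opalin, averaged 2.92 FPKM. Their part in the Cers2 values was not tested.

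Cers6 was read at 7.12, 5.69 and 5.41 FPKM in DHT libraries, against 6.42, 5.62 and 5.62 FPKM in oil libraries, averaging 6.08 ± 0.915 FPKM for DHT and 5.89 ± 0.460 FPKM for oil (SD, n = 3 each). The values of the groups overlapped throughout. A log2 fold change of 0.04 (SE 0.13, limma adjusted p = 0.962) became -0.03 with centred libraries and -0.08 without DHT library 1, so the gene value has no settled sign. The circle and the gene value were not compared in 1 test.

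Cers5 had the lowest unadjusted p of the 7. Its values were 4.13, 2.81 and 3.39 FPKM in DHT libraries, against 3.99, 5.08 and 4.53 FPKM in oil libraries, and the groups overlapped only through DHT library 1 and oil library 1. This gave a log2 fold change of -0.36 (SE 0.16, limma adjusted p = 0.658), and -0.24 without DHT library 2. Cers5 was thus lower in the mean of its linear transcripts where its circle had more reads.

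Cers4, a synthase of long chain ceramides, had 2.15, 2.83 and 4.57 FPKM in DHT libraries, against 2.59, 4.49 and 3.46 FPKM in oil libraries. The groups overlapped. Its log2 fold change of -0.15 (SE 0.28, the largest SE among the 7 genes, limma adjusted p = 0.905) turned to 0.06 without DHT library 1 and to 0.02 without oil library 2.

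Cers1, the synthase of neurons that makes stearoyl ceramides, had no event under its own identifier. It shares its first exon and its transcript with the growth factor gene Gdf1, and the files hold the locus under the identifier of Gdf1, starting at the RefSeq start of both genes. The locus had 11.8, 12.03 and 9.51 FPKM in DHT libraries, against 11.6, 9.34 and 8.79 FPKM in oil libraries (log2 fold change 0.16, SE 0.15, limma adjusted p = 0.790), which ran from 0.08 without oil library 3 to 0.27 without oil library 1. The groups overlapped, and the reads of Cers1 and Gdf1 cannot be told apart here.

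Degs1, which completes ceramide, was the most abundant of the 7 genes. It stood at 9.09, 7.81 and 11.0 FPKM in DHT libraries, against 8.52, 7.65 and 9.45 FPKM in oil libraries. The groups overlapped, and DHT library 3 was the highest of all. The log2 fold change was 0.11 (SE 0.15, limma adjusted p = 0.867), and it was -0.01 without DHT library 3.

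**Figure D2:**
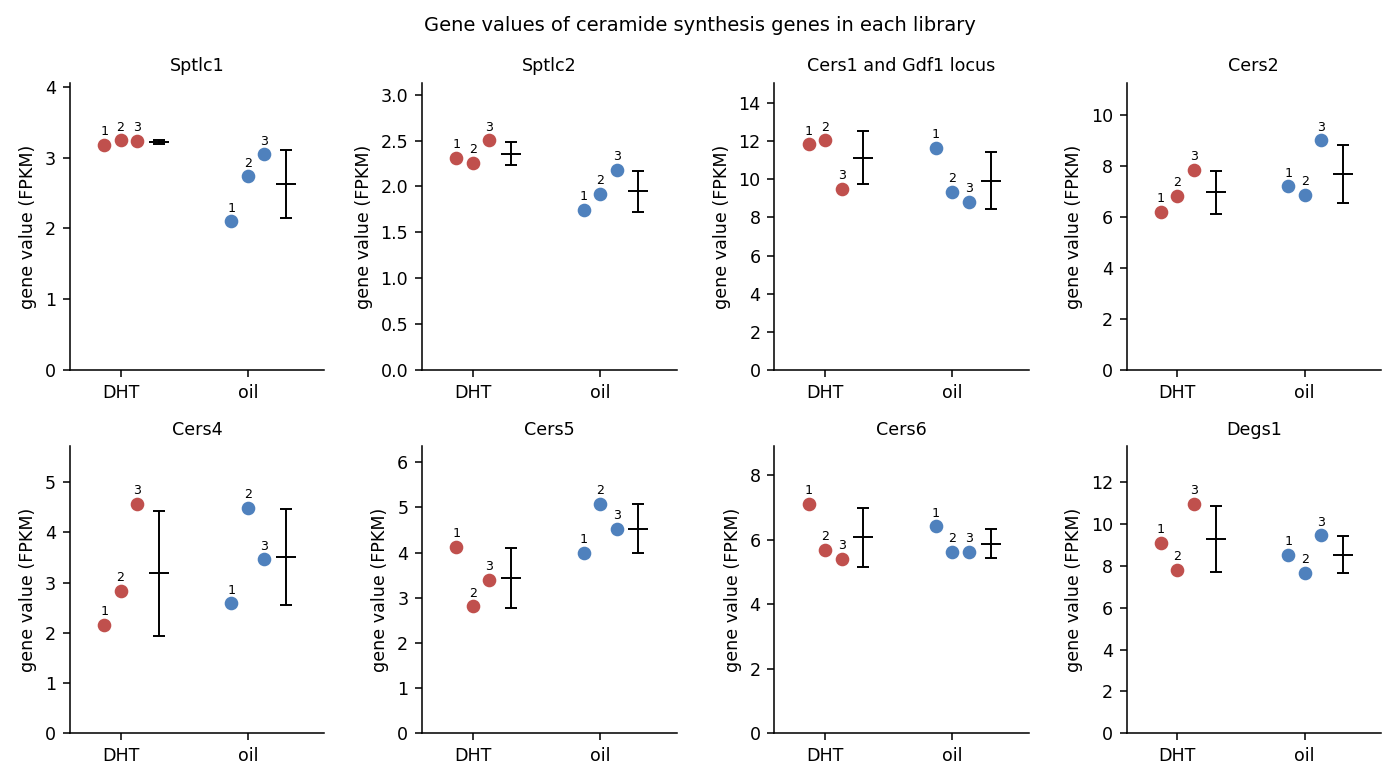
Gene values in FPKM (y axes from 0, each panel with its own range) of 7 ceramide synthesis genes and of the locus shared by Cers1 and Gdf1. Points are libraries, numbered within their group, with DHT on the left and oil on the right, and the black marks give the mean and SD of each group (n = 3). Sptlc1 and Sptlc2 were the genes whose DHT libraries all lay above the oil libraries, and the other panels overlap. Libraries are not centred here.

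With these gene values the genes ran, over all 6 libraries, in the order Degs1 (mean of 8.92 FPKM), Cers2 (7.34), Cers6 (5.98), Cers5 (3.99), Cers4 (3.35), Sptlc1 (2.92) and Sptlc2 (2.15). With last-exon sums, which were at 0 in most libraries for Cers5, Cers6 and Sptlc2, Sptlc1 and Cers4 came directly after Cers2. FPKM is per length, so these levels can be set side by side. Degs1 was above Cers2, Cers6 above Cers5 and Sptlc1 above Sptlc2 in 6 of 6 libraries, by mean log2 differences of 0.26 ± 0.18, 0.54 ± 0.28 and 0.36 ± 0.08 (SD, n = 6). Each gave p = 0.03125 in an exact two-sided paired permutation test, the smallest that 6 libraries allow, and 0.0625 when adjusted over the 6 neighbouring pairs. Cers2 was above Cers6 in 5 of 6 libraries (exact p = 0.09375), Cers5 above Cers4 in 4 (exact p = 0.25) and Cers4 above Sptlc1 in 4 (exact p = 0.46875). No neighbouring pair therefore passed an adjusted p of 0.05 (exact permutation tests, BH over 6 pairs). The order was taken from these same libraries, and even pairs at the smallest possible p stood at 0.0625 when adjusted. This count thus says little about the genes.

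Among 4538 genes averaging 5 FPKM or more, those whose values followed Cers6 most closely over the 6 libraries were Dlgap2, a scaffold gene of the postsynaptic density (r = 0.985), Ankrd13b (r = 0.981) and the chloride-proton exchanger gene Clcn4 (r = 0.980). For Cers2 they were Gm35040 (r = 0.994), the splicing factor gene Sf3b1 (r = 0.991) and C2cd5 (r = 0.987). With 6 libraries and so many genes searched, these are descriptions with no test.

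Events gave a finer view of which exons carried these values. Of the 137 events 56 had a mean of at least 0.5 FPKM, holding 37 distinct profiles over the libraries, since events of the same transcript carry the same numbers. No event passed limma's adjusted p of 0.05, against 0.0481% of 74779 events tested, and 1 had an unadjusted p under 0.05, against 6.07% of all. That count was 7 without DHT library 3, 4 without DHT library 1 and 3 without oil library 2, and 0 without both DHT library 2 and oil library 3. The 1 event was the main first exon of Cers5 (chr15:99772183-99772885), at 2.30, 2.23 and 1.87 FPKM in DHT libraries, against 3.03, 3.66 and 4.30 FPKM in oil libraries. All DHT libraries were below all oil libraries, as in 3.5% of all events, with a log2 fold change of -0.65 (SE 0.16, limma adjusted p = 0.739). It was named after its values were seen.

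A neighbouring first exon of Cers5 (chr15:99771888-99772092) had 0.499, 0.157 and 1.33 FPKM in DHT libraries, against 0.318, 0.408 and 0.133 FPKM in oil libraries, and is part of the gene sum in which the groups overlap. The pair of exons between 99740944 and 99741659, which lies inside the Cers5 circle, was included in 100% of forms in all DHT libraries and in 91.9%, 78.1% and 100% in oil libraries. The form that skips both was thus listed in oil libraries 1 and 2 only. The cassette exon of 107 bases next to the downstream end of the circle (chr15:99737547-99737653) was included in 79.3%, 99.9% and 54.5% in DHT libraries and in 78.5%, 94.4% and 77.5% in oil libraries, which overlap.

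The other synthases differed in how varied their transcripts were. In Cers6 the exon of 24 bases at chr2:69105743-69105766 was included in 93.3% to 100% in every library, and the main first exon had 7.07, 5.64 and 5.34 FPKM in DHT libraries, against 4.96, 5.56 and 5.46 FPKM in oil libraries. In Cers2 the intron chr3:95320235-95320642 was kept in 0% in all libraries. In Cers4, the gene with the most events (44, of which 22 were tested), shares for the intron chr8:4520308-4520554 cover only forms that also keep the intron before it. Among those forms it was kept in 54.3%, 9.65% and 100% in DHT libraries and in 62.0%, 100% and 100% in oil libraries. Forms with both introns removed, which these shares leave out, held 0.801, 1.11 and 1.38 FPKM in DHT libraries, against 0.515, 0.882 and 1.78 FPKM in oil libraries. The Cers4 shares thus differed widely between libraries of the same group.

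In Degs1 the gene value was split over 3 first exons that begin at the same base on chromosome 1 and end at 182282622, 182282379 or 182282161. The shortest had 4.94, 2.71 and 7.17 FPKM in DHT libraries, against 4.10, 3.71 and 9.45 FPKM in oil libraries, so it was present in all. The longest had 4.16, 0 and 3.80 FPKM in DHT libraries, against 4.42, 3.94 and 0 FPKM in oil libraries. The intermediate one was listed in DHT library 2 only, at 5.11 FPKM, and that library had none of the longest. In each library the 3 forms sum to the value of the only last-exon event. That sum follows from how the events are built, so it does not show whether the choice of form affects the total.

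The ends of the longer forms are shown since they are where the libraries differ. Each line gives 30 bases from RefSeq (GRCm38.p6, minus strand), the first at chr1:182282146-182282175 and the second at chr1:182282364-182282393, and capitals mark the GT that directly follows the exon end.
Degs1 longest first exon: gaccggatggctcctGTgagtttttattcc
Degs1 intermediate first exon: gctgagggtccccagGTagggcgatccgga

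**Figure D3:**
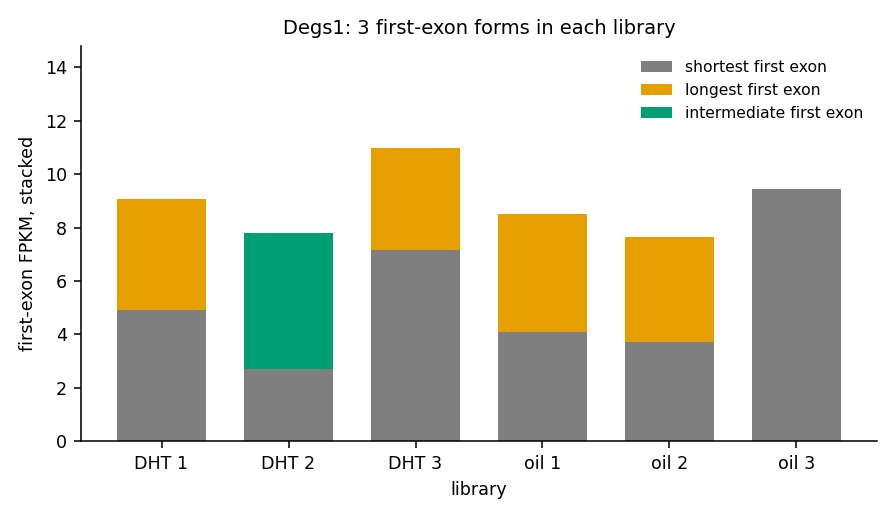
First-exon FPKM of Degs1 (y axis, from 0) in each library (x axis, DHT on the left and oil on the right), stacked by the 3 first-exon forms. The longest form was present in DHT libraries 1 and 3 and oil libraries 1 and 2, the intermediate form in DHT library 2 only, and oil library 3 held the shortest form alone.

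Genes that feed or use the pathway were taken from lists of 64 gene symbols, in which Col4a3bp also stands under its other symbol, Cert1. Of these, 49 had a mean of at least 0.5 FPKM. None passed limma's adjusted p of 0.05, and 2 of the 49 had an unadjusted p under 0.05, against 7.34% of all genes. The median log2 fold change of the 49 was 0.09, beside 0.07 for all genes, and 34 of the 49 were higher in DHT libraries, against 63.6% of all genes, or 27 of the 49 with centred libraries, against 51.4%.

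Of 9 listed partners of de novo synthesis 7 had a value and 3 were tested, with a median log2 fold change of -0.03. Sptssb, Ormdl2, Cers3 and Sptlc3 were below the mean of 0.5 FPKM. Ormdl3, which encodes a brake on serine palmitoyltransferase, had 6.55, 6.41 and 4.93 FPKM in DHT libraries, against 6.42, 5.31 and 6.46 FPKM in oil libraries. Kdsr, the reductase gene of the step after it, had 3.04, 2.31 and 3.03 FPKM in DHT libraries, against 3.46, 2.50 and 3.33 FPKM in oil libraries. Degs2, a relative of Degs1, stayed at or under 1.04 FPKM in every library, and Sptlc3 was listed at 0 throughout.

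The supply of acyl chains held both genes with an unadjusted p under 0.05. Tecr, which encodes the last reductase of fatty acid elongation, had 60.3, 64.3 and 70.4 FPKM in DHT libraries, against 47.6, 48.4 and 54.0 FPKM in oil libraries. All DHT libraries lay above all oil libraries, with a log2 fold change of 0.37 (SE 0.10, limma adjusted p = 0.652), or 0.31 with centred libraries. The acyl-CoA synthetase gene Acsbg1 had 16.2, 14.8 and 15.3 FPKM in DHT libraries, against 14.4, 12.2 and 11.8 FPKM in oil libraries (log2 fold change 0.26, SE 0.11, limma adjusted p = 0.658). Of the 16 genes 11 were higher in DHT libraries, or 9 with centring, and the acyl-CoA synthetase genes Acsl6 and Acsl3 had log2 fold changes of 0.14 (SE 0.22) and 0.05 (SE 0.11). Acsbg1 was named after its values were seen.

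Among 10 tested users of ceramide 7 were higher in DHT libraries, at a median of 0.12 on the log2 scale, and none passed limma's adjusted p of 0.05. The ganglioside synthase gene St3gal5 (log2 fold change -0.27, SE 0.18) and the lactosylceramide synthase gene B4galt6 (-0.03, SE 0.09) were lower, and Ugcg, the glucosylceramide synthase gene, was higher (0.16, SE 0.09). Ugcg had 8.60, 8.39 and 8.22 FPKM in DHT libraries, against 7.75, 7.36 and 7.29 FPKM in oil libraries, without overlap. With centred libraries its log2 fold change was 0.10. Release and turnover gave 11 of 15 higher, or 8 with centring, with the saposin precursor gene Psap at 147, 142 and 140 FPKM in DHT libraries, against 134, 123 and 133 FPKM in oil libraries, and the acid sphingomyelinase gene Smpd1 at 15.3, 13.5 and 13.6 FPKM in DHT libraries, against 12.7, 11.7 and 11.0 FPKM in oil libraries. Of the list named ceramide transport, Col4a3bp, Gltp and Cptp were tested. All 3 were higher, with log2 fold changes of 0.15, 0.31 and 0.13, and none passed, where 63.6% of all genes were higher. Of the sphingosine 1-phosphate receptor genes, S1pr5 had a log2 fold change of 0.01 (SE 0.12) and S1pr3 one of -0.04 (SE 0.15), and both were below 0 with centred libraries.

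**Figure D4:**
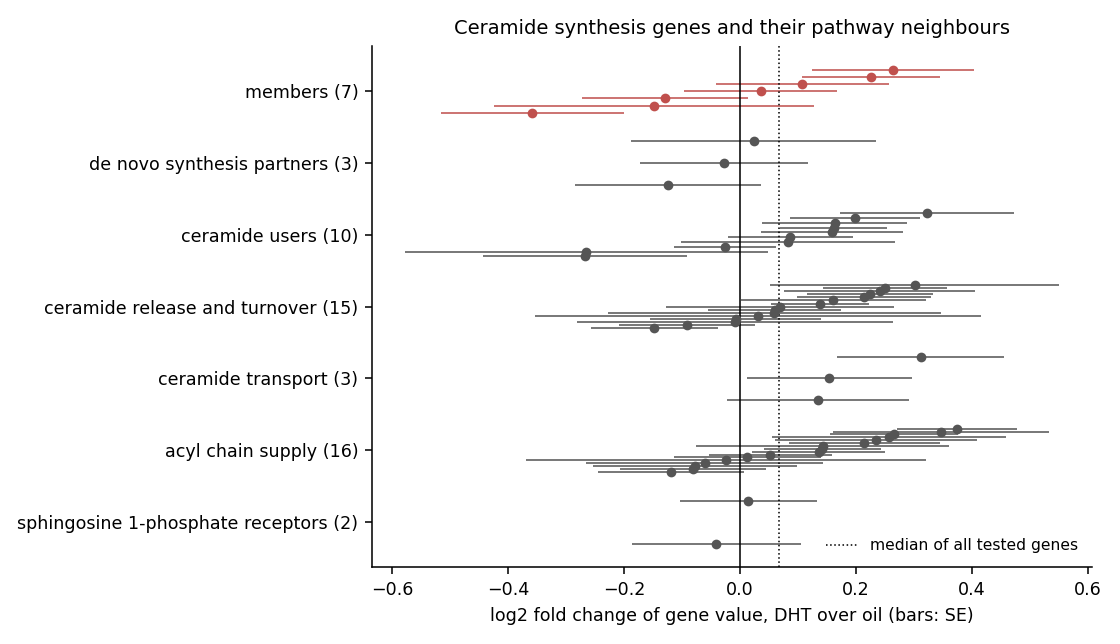
Log2 fold changes of gene values, DHT over oil (x axis, linear scale of log2 values, bars are SE), for 7 ceramide synthesis genes in the top row and for the tested genes of each pathway list below, with the number of genes in brackets. The dotted line is the median of all tested genes at 0.07. Of the 49 pathway genes 34 lie to the right of 0, and none passed limma's adjusted p of 0.05.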

How the data were processed

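Whole-number counts of back-splice and linear reads at each circRNA were deposited by the authors, beside a score (SRPBM, spliced reads per G mapped reads, per the labels' protocols), used here only to work out mapped reads. FPKM was deposited by the authors per exon or splicing event, not per gene. The submitters' processing notes name HISAT2 2.0.1, BWA, cutadapt and bcl2fastq 2.17.1.14 but not a circRNA caller or an assembler, and their roles and settings are not given in those notes. The notes name the build mm9, but the first exons of Cers6 and Sptlc2 start exactly at RefSeq GRCm38 promoter starts, so coordinates are given as GRCm38.

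Circles with at least 20 reads and linear counts listed in every library went into edgeR 4.0.16 (TMM, quasi-likelihood test) and DESeq2 1.42.0, and gene values and events with a mean of at least 0.5 FPKM into limma 3.58.1 on log2(FPKM + 0.5), in R 4.3.3, each over the whole table with Benjamini-Hochberg adjustment at 0.05. The plan had assumed gene or transcript FPKM. An exact 0 can be a failed estimate. Scripts were tested on simulated data.

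The genes, lists and tests were chosen with earlier results of these data known. All 8 genes, circles with at least 20 reads, events past the threshold or the leading first or last exon, and in each pathway list the 3 genes with the highest mean were named by rule, and other circles and events were named after their values were seen. Overlapping and antisense genes cannot be told apart in these files.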

Additional observations from a re-analysis of the deposited data

How the results depend on the processing

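The counts of circles, linear reads, gene values, events, pathway genes and neighbouring pairs past an adjusted p of 0.05 were 0, and they were 0 under all 69 alternatives that gave a count. For the neighbouring pairs this says nothing of stability, since leaving out 1 library allows no exact p below 0.0625 and leaving out 2 none below 0.125. Of 173 single values under an alternative, 158 kept their direction and their side of the threshold, and 7, all of the Gba2 exon, kept the direction but lost the call. The 8 values that reversed were small and far from the threshold. Cers4 turned to 0.062 without DHT replicate 1 and to 0.022 without oil replicate 2, within a range of -0.405 to 0.062 on leaving libraries out. Cers6 turned to -0.026 with centred libraries and to -0.075 without DHT replicate 1 (range -0.075 to 0.108), and Degs1 to -0.013 without DHT replicate 3 (range -0.013 to 0.291). The linear reads at the Cers6 circle turned to 0.098 without DHT replicate 2, to 0.035 without oil replicate 1 (range -0.160 to 0.098) and to 0.086 without DHT replicate 2 and oil replicate 3, a pair left out for high glial reaction genes in earlier results. The causes were not tested. Last-exon sums gave no value for Cers5, Cers6 or Sptlc2, which fell below the filter there. The log2 fold change of the Cers6 circle ran from -1.66 to -1.48 over its alternatives and that of the Cers5 circle from 2.19 to 6.07.

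On simulated counts at these depths edgeR recovered 1 of 67 circles changed 1.5-fold and 4 of 66 changed 3-fold, and limma 6 of 67 genes changed 1.5-fold and 46 of 66 changed 3-fold, with 7 false calls. No paired analysis was possible because the title numbers differ between groups (19, 26 and 27 for DHT, 2, 3 and 7 for oil), and the numbers 1 to 3 used here only name libraries.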

Other observations

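Among 322 tested events of the pathway genes, 5 passed limma's adjusted p of 0.05, and all 5 belong to Gba2, which encodes the glucosylceramidase outside the lysosome that releases ceramide from glucosylceramide. They carry the same numbers, so they stand for 1 measurement, an exon on chromosome 4 (chr4:43570037-43570448, minus strand) that keeps the intron chr4:43570190-43570346. This exon had 0.145, 0.124 and 0.0434 FPKM in DHT libraries, against 3.90, 5.26 and 3.69 FPKM in oil libraries, with no overlap (log2 fold change -2.97 on the scale of FPKM + 0.5, SE 0.20, limma adjusted p = 0.0199). An event that keeps another intron of Gba2 (chr4:43569661-43569830) had 0.139, 0.120 and 0.0381 FPKM in DHT libraries, against 0.0136, 5.26 and 3.68 FPKM in oil libraries. The exon may thus pool more than 1 transcript form, and there oil library 1 differs from oil libraries 2 and 3. Of all events 0.0481% passed. The exon was named after its values were seen, and its adjusted p rose to between 0.0844 and 0.114 on leaving out any 1 library, with the log2 fold change between -3.06 and -2.83. Over all its alternatives the limma adjusted p ran from 0.0215 to 0.2525 and the log2 fold change from -4.445 to -2.248.

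Forms with the intron removed had 5.52, 6.10 and 7.97 FPKM in DHT libraries, against 3.89, 0.903 and 2.58 FPKM in oil libraries (log2 fold change 1.38, limma adjusted p = 0.786). Longer forms that kept this intron and the next one held 2.33 FPKM in DHT library 1 and 2.40 FPKM in DHT library 2 and were listed at 0 in the other libraries. The intron itself was thus read in both groups. The gene value of Gba2 was 9.55, 9.73 and 8.63 FPKM in DHT libraries, against 10.2, 8.78 and 11.0 FPKM in oil libraries, which overlap (log2 fold change -0.09, SE 0.12, limma adjusted p = 0.854).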
